A study of Mus musculus with 4 samples.

Results

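The genes described here are 10 markers by which epithelial cells are told from mesenchymal ones. They are the epithelial genes Cdh1, Cdh16, Epcam, Krt8, Krt18 and Krt19 and the mesenchymal genes Cdh2, Vim, Snai2 and Zeb1. Each was taken from the array wherever the platform annotation gave a probe set exactly that 1 gene symbol, and all 10 were found among 18193 genes named in this way, with 20 of the 45037 probe sets. The cells were mDCT, a mouse cell line derived from the distal convoluted tubule of the kidney and immortalised. They had been transfected with a 3xFLAG-hMR plasmid, which carries the human mineralocorticoid receptor (MR) that aldosterone binds, 48 h before treatment began. Every library carries this receptor, and the labels name neither a selected clone nor an untransfected control. The 4 libraries, 1 per treatment, were ethanol for 3 h, 1 nM aldosterone for 3 h, 100 nM aldosterone for 3 h, and 100 nM aldosterone for 3 h after a 2 h pretreatment with 5 µM spironolactone, an MR antagonist. The last is called the spironolactone library, and none received the antagonist alone.

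Epithelial cells hold together through E-cadherin at adherens junctions and carry keratin filaments, whereas mesenchymal cells use N-cadherin and vimentin. In the epithelial-mesenchymal transition, repressors of the Snail and Zeb families bind E-box sequences in epithelial promoters, that of the E-cadherin gene first among them, and shut these genes off. Kidney tubules arise from mesenchyme, and some tubule cells, those of the proximal segment among them, keep N-cadherin.

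Upstream sequences are shown because such repressors act at sites of this kind. The promoter table used here matched 4 of the 10 genes, Epcam, Krt8, Krt18 and Vim, so those of the other 6, Cdh1 among them, were not analysed here. Each is the 250 bases before the gene's start, 5′ to 3′, from RefSeq on GRCm38.p6, for Epcam on the plus strand (chr17:87635729-87635978), Krt8 on the minus strand (chr15:102004343-102004592), Krt18 on the plus strand (chr15:102027966-102028215) and Vim on the plus strand (chr2:13574061-13574310). Capitals mark the E-box form CAGGTG or its reverse complement CACCTG.
Epcam: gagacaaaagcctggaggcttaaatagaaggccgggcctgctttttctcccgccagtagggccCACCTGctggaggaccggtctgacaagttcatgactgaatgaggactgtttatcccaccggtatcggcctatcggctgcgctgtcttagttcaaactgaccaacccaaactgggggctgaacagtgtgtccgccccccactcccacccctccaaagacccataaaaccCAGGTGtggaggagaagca
Krt8: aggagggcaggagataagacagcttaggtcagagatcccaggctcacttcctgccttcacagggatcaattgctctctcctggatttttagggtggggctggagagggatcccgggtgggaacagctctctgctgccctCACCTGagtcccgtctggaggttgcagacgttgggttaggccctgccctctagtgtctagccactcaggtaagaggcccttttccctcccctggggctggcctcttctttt
Krt18: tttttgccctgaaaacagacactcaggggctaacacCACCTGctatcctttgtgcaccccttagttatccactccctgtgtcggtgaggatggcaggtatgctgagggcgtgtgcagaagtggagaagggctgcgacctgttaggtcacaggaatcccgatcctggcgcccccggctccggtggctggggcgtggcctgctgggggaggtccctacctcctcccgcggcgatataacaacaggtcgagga
Vim: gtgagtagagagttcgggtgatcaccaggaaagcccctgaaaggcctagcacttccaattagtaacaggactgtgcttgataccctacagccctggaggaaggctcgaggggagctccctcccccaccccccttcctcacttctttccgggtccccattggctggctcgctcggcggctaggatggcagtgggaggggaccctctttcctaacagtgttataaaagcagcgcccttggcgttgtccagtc

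In the Epcam window the motif was found 2 times, beginning 187 and 19 bases before the start. It was found 1 time in the Krt8 window, 111 bases before the start, and 1 time in the Krt18 window, 214 bases before it. The Vim window held 0 copies. Of all 32851 windows of this length in the table, 17.2% held at least 1 copy on either strand. A match describes the letters of the window and does not show a bound site, and no copy in a window says only that these letters are not in it.

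Signals were compared first with the median of their own library, which lay between 58.7 and 61.5. All 4 mesenchymal genes were above that median in every library, and so were 2 of the 6 epithelial genes, Cdh16 and Epcam. The other 4 epithelial genes, Cdh1, Krt8, Krt18 and Krt19, were below it in every library and with every probe set. Among all 18193 genes, each represented by its brightest probe set, 57.1% were above the median in all 4 libraries. The markers therefore described these libraries as low in E-cadherin and simple keratin signal and high in vimentin and N-cadherin signal, whichever treatment the cells had. Probe sets of the same gene can differ widely in signal, as those of Zeb1 did in ethanol (1402 to 7.58). Signal therefore does not rank transcript amounts between genes, and Cdh1, Krt18 and Krt19 each had a single probe set. The series has no detection calls in the values used here, so a signal below the median is reported as low and not as absent. In a bulk sample, fewer cells making a transcript and less of it per cell cannot be told apart.

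**Figure D1:**
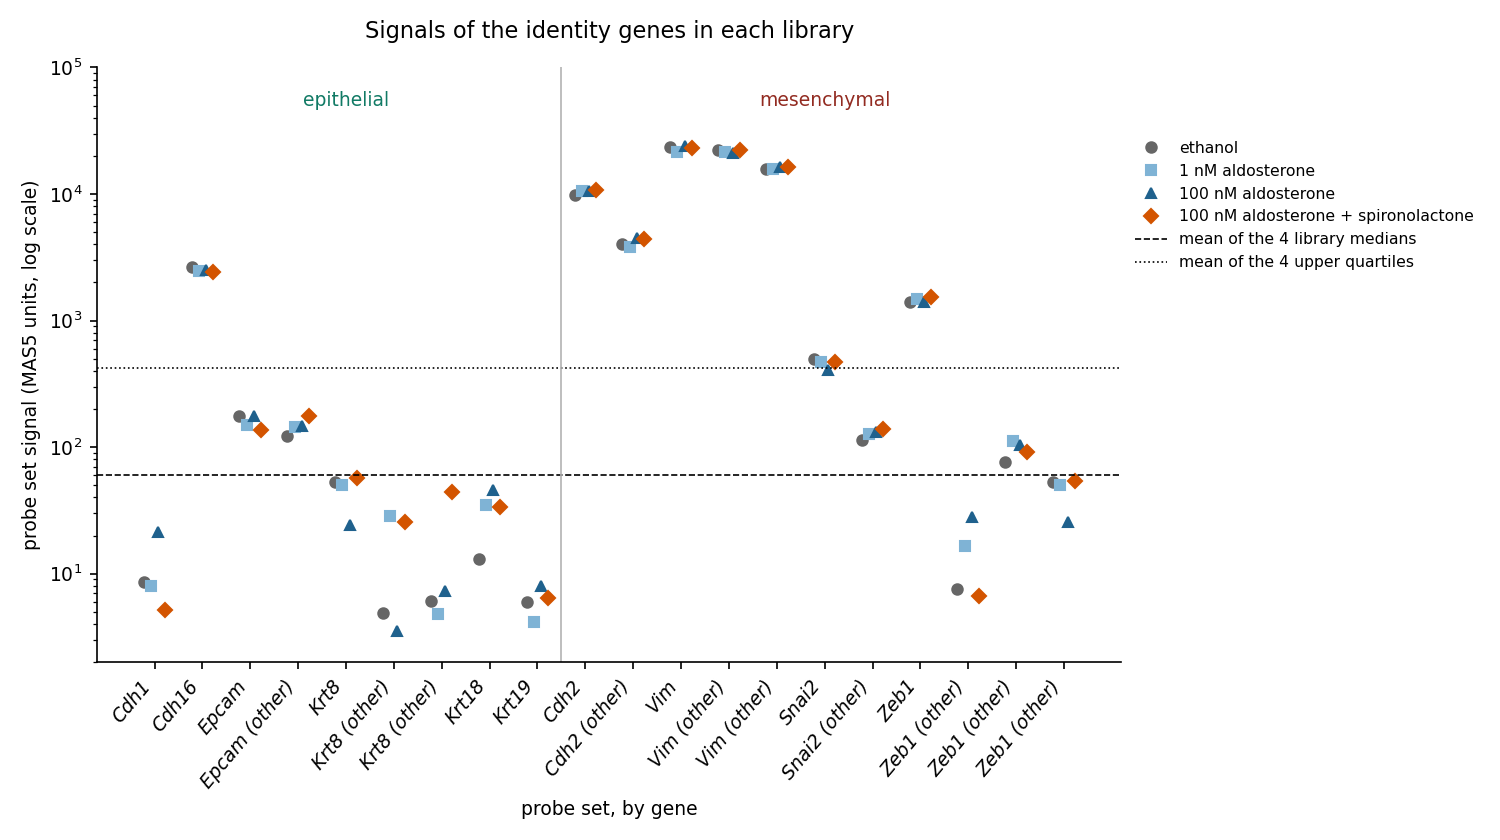
Signal of each of the 20 probe sets (MAS5 units, log scale) in the 4 libraries, 1 point per library, with "(other)" marking probe sets dimmer than the gene's brightest one. Vim, Cdh2 and Cdh16 lie far above the dashed line, the mean of the 4 library medians, in all libraries, while the points of Cdh1, Krt8, Krt18 and Krt19 lie below it.

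Vim encodes vimentin, the intermediate filament protein of mesenchymal cells. Its brightest probe set had signals of 23406 in ethanol, 21509 at 1 nM and 23768 at 100 nM aldosterone, and 22971 after spironolactone. These stood between the 99.7th and 99.8th percentiles. The other Vim probe sets ranged from 21209 to 22306 and from 15822 to 16430, so all 3 placed the gene in the top 1% of signals.

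Cdh2 encodes N-cadherin. Its signals were 9736 in ethanol, 10595 at 1 nM and 10628 at 100 nM aldosterone, and 10773 after spironolactone, between the 98.5th and 98.7th percentiles. The second Cdh2 probe set gave 3999, 3801, 4502 and 4375 in the same order. Ethanol was the lowest library for the first probe set and 1 nM aldosterone for the second.

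Both transcriptional repressors on the mesenchymal side were above the median too. Zeb1, a zinc finger repressor of E-cadherin, had signals of 1402 in ethanol, 1480.1 at 1 nM and 1395 at 100 nM aldosterone, and 1532 after spironolactone. Its other 3 probe sets were much dimmer: 1 lay between 76.3 and 112 and the other 2 stayed under the library median throughout. Snai2, which encodes the repressor Slug, had signals of 499.8, 471, 407 and 468 in that order, around the upper quartile of each library, and its second probe set had 114, 128, 131 and 139. The 100 nM library was the lowest for the brighter Snai2 probe set, but ethanol was the lowest for the dimmer one.

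Cdh16 encodes Ksp-cadherin, a cadherin largely particular to kidney tubule epithelium. Its single probe set had signals of 2667 in ethanol, 2463 at 1 nM and 2509.9 at 100 nM aldosterone, and 2406 after spironolactone, between the 92.3rd and 93.1st percentiles. It was the only epithelial member above the 75th percentile of signal. Ethanol was the highest library and spironolactone the lowest, over a range of 0.15 on the log2 scale.

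Epcam encodes the epithelial cell adhesion molecule. Its brighter probe set had signals of 175 in ethanol, 148 at 1 nM and 175 at 100 nM aldosterone, and 137 after spironolactone, from 2.30 to 2.98 times the library median. Its second had 121, 144, 146 and 175 in that order. The order of the libraries turned round between them: spironolactone was the lowest in the first and the highest in the second. The second carries the suffix (_x_at) that marks probe sets with probes open to cross-hybridisation, as do the brighter Snai2 probe set, 1 of the 3 for Vim and 2 of the 3 for Krt8.

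Cdh1, which encodes E-cadherin, had signals of 8.58 in ethanol, 7.96 at 1 nM and 21.5 at 100 nM aldosterone, and 5.21 after spironolactone. The highest of these, with 100 nM, was 0.36 times that library's median and reached the 30.5th percentile. A single probe set stood for the gene.

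Krt8 and Krt18 encode the partner keratins that form the filaments of simple epithelia. Krt8 had signals of 53.1, 49.8, 24.4 and 56.8 in ethanol, 1 nM aldosterone, 100 nM aldosterone and spironolactone, and 2 further probe sets ranged from 3.50 to 28.5 and from 4.80 to 43.8. Krt18 had 13.0, 34.8, 45.5 and 33.8 in the same order. Krt19, a keratin of simple and ductal epithelia, had 5.92, 4.15, 8.05 and 6.47, at most the 17.3rd percentile. The 100 nM library was lowest for the brightest Krt8 probe set and highest for Krt18 and Krt19, so the partner keratins did not follow one order.

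The low keratin signal was not limited to the 3 keratins on the marker list. Of 6 other keratins on a wider epithelial list, 5 were below the library median in all 4 libraries and Krt5 was above it in 3. The array named 44 keratin genes with the symbol Krt and a number alone, and symbols ending in a letter were left out. Of these 44, 33 were below the median in every library, where 34.4% of all genes were. Another 5 were above it in every library (Krt10, Krt32, Krt42, Krt80 and Krt81). The median percentile of the 44 was 23.8, against 63.7 over all genes. This subgroup and the next were described after their values were seen.

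Other junction genes are given by their signals, since counts over groups this small say little beside the 57.1% of all genes above the median in every library. Of 8 desmosome and plakin genes, 6 were above it, among them the desmosomal plaque genes Dsp (957 to 1175) and Pkp2 (2260.1 to 2587) and the desmosomal cadherin Dsg2 (863 to 942). The 3 catenins on the lists, proteins that bind cadherins at the junction, were above it too, with 13276 to 13584 for Ctnnb1 and 10536 to 11477 for Ctnna1. Of 6 cadherins on the lists, Cdh2, Cdh16, Cdh3 (206 to 263) and Cdh6 (389 to 457) were above the median in all libraries, and Cdh1 and the mesenchymal cadherin Cdh11 (22.9 to 54.5) were below it.

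Wider lists of genes of both kinds did not part as the 10 markers did. On the list of other epithelial adhesion and keratin genes, 16 of 30 measured genes (53.3%) were above the median in all libraries, and on that of epithelial and tubule transcription and splicing factors 8 of 14 (57.1%). On the list of other mesenchymal genes it was 15 of 25 (60.0%), against 57.1% of all genes. The median percentiles were 55.0, 60.2 and 60.1 in that order, all lower than the 63.7 of all genes. The mesenchymal list held bright genes such as the matrix glycoprotein fibronectin (Fn1, 4597 to 5456) and the calcium-binding S100a4 (4377 to 4499). It also held dim ones, the fibrillar collagen genes Col1a1, Col1a2 and Col3a1 and the fibroblast protease Fap among them, none of which was above the median in all libraries. Pax8, a transcription factor of the tubule lineage, had signals from 744 to 909.

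Of 10 other transcription factors known from the epithelial-mesenchymal transition, 7 were above the median in every library, beside 57.1% of all genes, and the median percentile of the 10 was 61.6, lower than the 63.7 of all genes. Twist2, a basic helix-loop-helix factor, ranged from 2178 to 2579.8, Tcf3, which encodes the E-box binding E2A proteins, from 964 to 1130.4, and its relative Tcf4 from 594 to 635. Twist1 ranged from 228 to 267, Zeb2 from 135 to 199.8, Sox9 from 91.9 to 129 and Snai3 from 68.3 to 105. Snai1, the Snail repressor itself, was below the median in all libraries (7.04 to 43.0), as were Prrx1 (21.7 to 45.1) and Foxc2 (3.01 to 17.3).

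**Figure D2:**
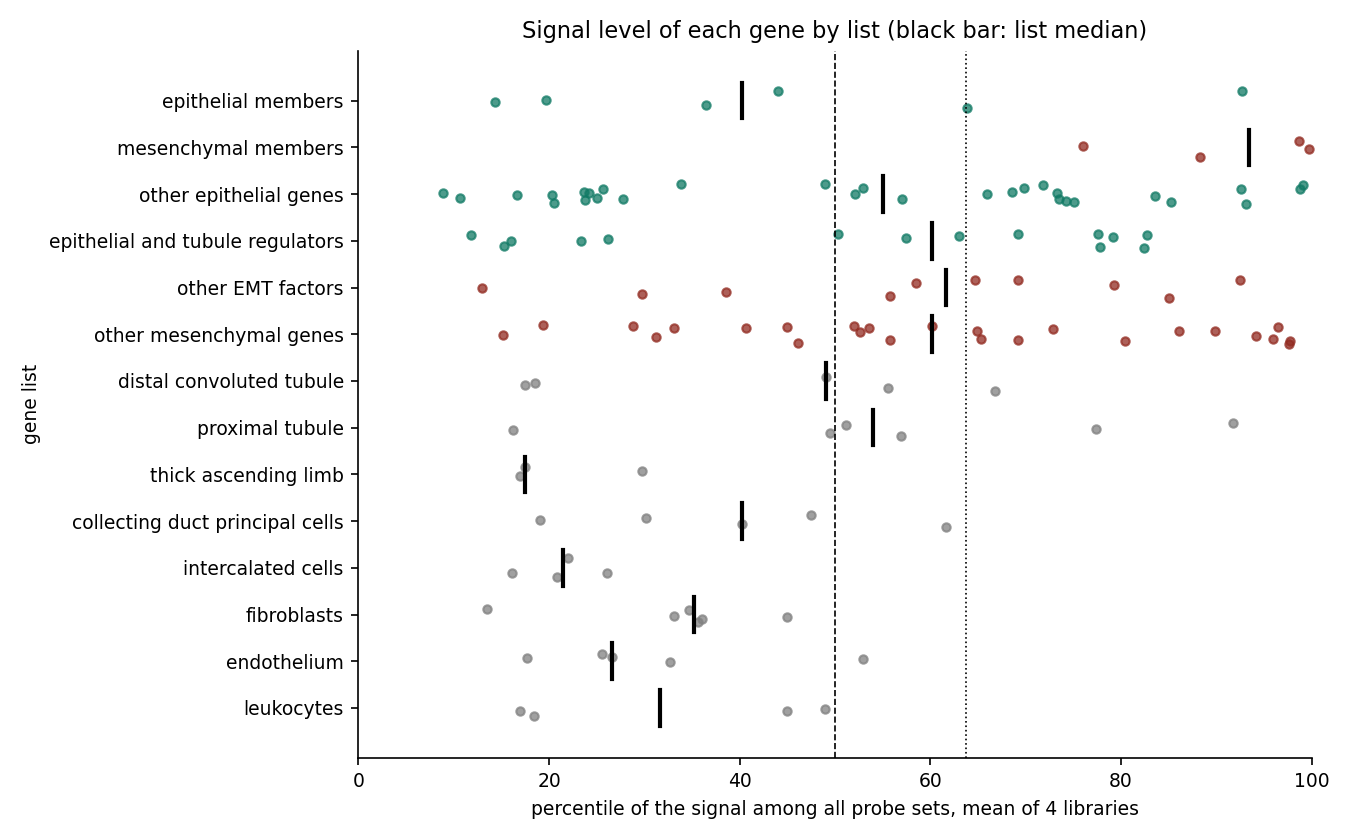
Percentile of each gene's signal among all probe sets, averaged over the 4 libraries, by gene list, with 1 point per gene, a black bar at each list's median, a dashed line at the 50th percentile and a dotted line at the median over all genes (63.7). The mesenchymal members lie at 76.0 or above and have a median of 93.4, the epithelial members have a median of 40.3, and the wider lists spread over the whole axis.

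The labelled cell type was checked against its markers. Slc12a3, the sodium chloride cotransporter that defines the distal convoluted tubule, was below the median in all libraries (3.93 to 17.2), as was the calcium-binding Calb1, while Wnk4 (159 to 247) and Trpm6 were above it, 2 of 5 markers. Of 6 proximal tubule markers 3 were above the median in all libraries, with Aqp1 from 2069 to 2479. It was 1 of 5 for collecting duct principal cells, 0 of 3 for the thick ascending limb and 0 of 4 for intercalated cells. None of 6 fibroblast, 5 endothelial or 4 leukocyte markers was above the median in all libraries. The endothelial Kdr was above it in 3 libraries (51.1 to 85.1) and the leukocyte Cd68 in 1. Over all genes 57.1% were above the median in all libraries, so counts over marker groups this small say little. The summed signal of the fibroblast markers was 202 in ethanol, 188 at 1 nM and 162 at 100 nM aldosterone, and 127 after spironolactone. None of the 6 had a mean log2 signal at the median over all probe sets, so these sums are not given as a change. The part of the fibroblast markers in the signal of the mesenchymal members was not tested. None of these markers is listed at 0. Col1a1 was above the median in 2 libraries, and Pdgfra, Pdgfrb, Dcn, Lum and Col3a1 in none. Col1a1 and Col3a1 are on the mesenchymal list as well.

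The libraries were alike in quality. Upper quartiles lay between 418 and 424, the 3′ to 5′ signal ratio of the Actb control between 1.26 and 1.33 and that of Gapdh between 0.74 and 0.78. The mean log2 signal of 11057 genes reached the median over all probe sets, equal to a signal of 55.9. Across them, the lowest correlation of log2 signals between any pair of libraries was 0.991. These genes entered the comparisons below, and with them 6 of the 10 members: Cdh16, Epcam, Cdh2, Vim, Snai2 and Zeb1. With 1 array per treatment there is no spread between replicates, so no difference could be tested, and each is one between 2 libraries. Comparisons that share a library are not independent of each other.

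The 100 nM aldosterone library was set against ethanol to see what 3 h of the higher dose did to these genes. No entered member differed by 1.5-fold, 0 of 6, where 4.11% of all entered genes did. With so few members and a background of this size, a count of 0 does not set them apart, here or in the comparisons below. On the log2 scale Cdh2 was higher by 0.13 (0.17 in its second probe set), Cdh16 differed by -0.09 and Vim by 0.02 (-0.06 in the next brightest probe set). The largest difference was that of Snai2, -0.30, but its second probe set differed by 0.20. Zeb1 differed by -0.01 and Epcam by 0.00 in their brighter probe sets, and by 0.44 and 0.26 in their second. After quantile normalization the values of the brighter probe sets were 0.00 for Zeb1 and 0.01 for Epcam, so their sign carries nothing. The median was -0.05 over both entered epithelial members and 0.01 over the 4 mesenchymal ones, against 0.00 over all entered genes, and with means over probe sets it was 0.02 and 0.08.

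With 1 nM aldosterone against ethanol, again 0 of 6 members passed 1.5-fold, where 4.68% of entered genes did. Epcam differed by -0.24 in 1 probe set and by 0.24 in the other. Cdh2 was higher by 0.12 in its brighter probe set and differed by -0.07 in the second, Vim differed by -0.12 (-0.05 in the next brightest), Cdh16 by -0.11 and Snai2 by -0.09 (0.16 in the second). For Zeb1 the value was 0.08, with 0.56 in a second probe set of signal 76.3 in ethanol and 112 with 1 nM. That was the largest difference among the 12 member probe sets that reached the filter and fell short of 1.5-fold, which is 0.58 on this scale.

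Between the doses, 100 nM against 1 nM, 0 of 6 members passed 1.5-fold and 4.01% of entered genes did. Epcam was higher by 0.24 with 100 nM (0.02 in the second probe set), Vim by 0.14 (0.00 in the next brightest) and Cdh16 by 0.03. Snai2 differed by -0.21, but by 0.04 in its second probe set, and Zeb1 by -0.09 (-0.11 in the second). Cdh2 did not differ in its brighter probe set (0.00) and was higher by 0.24 in its dimmer one.

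Spironolactone pretreatment was set against 100 nM aldosterone alone to see what the antagonist took away. Here too 0 of 6 members passed 1.5-fold, where 4.33% of entered genes did. Epcam differed by -0.35, from 175 to 137, while its second probe set was higher by 0.26. Snai2 was higher by 0.20 (0.08 in the second) and Zeb1 by 0.14 (-0.19 in the second). Cdh2 differed by 0.02 (-0.04 in the second), Vim by -0.05 (0.07 in the next brightest) and Cdh16 by -0.06. The median was -0.21 over the epithelial members, which are Epcam and Cdh16 alone, and 0.08 over the mesenchymal ones, against 0.00 over all entered genes. With the mean over each gene's probe sets these medians were -0.05 and 0.00, so neither holds across probe sets.

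Against ethanol, the spironolactone library had 0 of 6 members past 1.5-fold and 4.21% of entered genes. Cdh2 was higher by 0.15 (0.13 in the second probe set) and Zeb1 by 0.13 (0.26). For each gene this was the same direction in both probe sets at or above the filter. The Zeb1 probe sets below the filter differed by -0.19 and 0.04. Cdh16 differed by -0.15, Vim by -0.03 (0.01 in the next brightest) and Snai2 by -0.09 (0.28 in the second). Epcam had the widest gap between its probe sets here, -0.35 against 0.53.

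**Figure D3:**
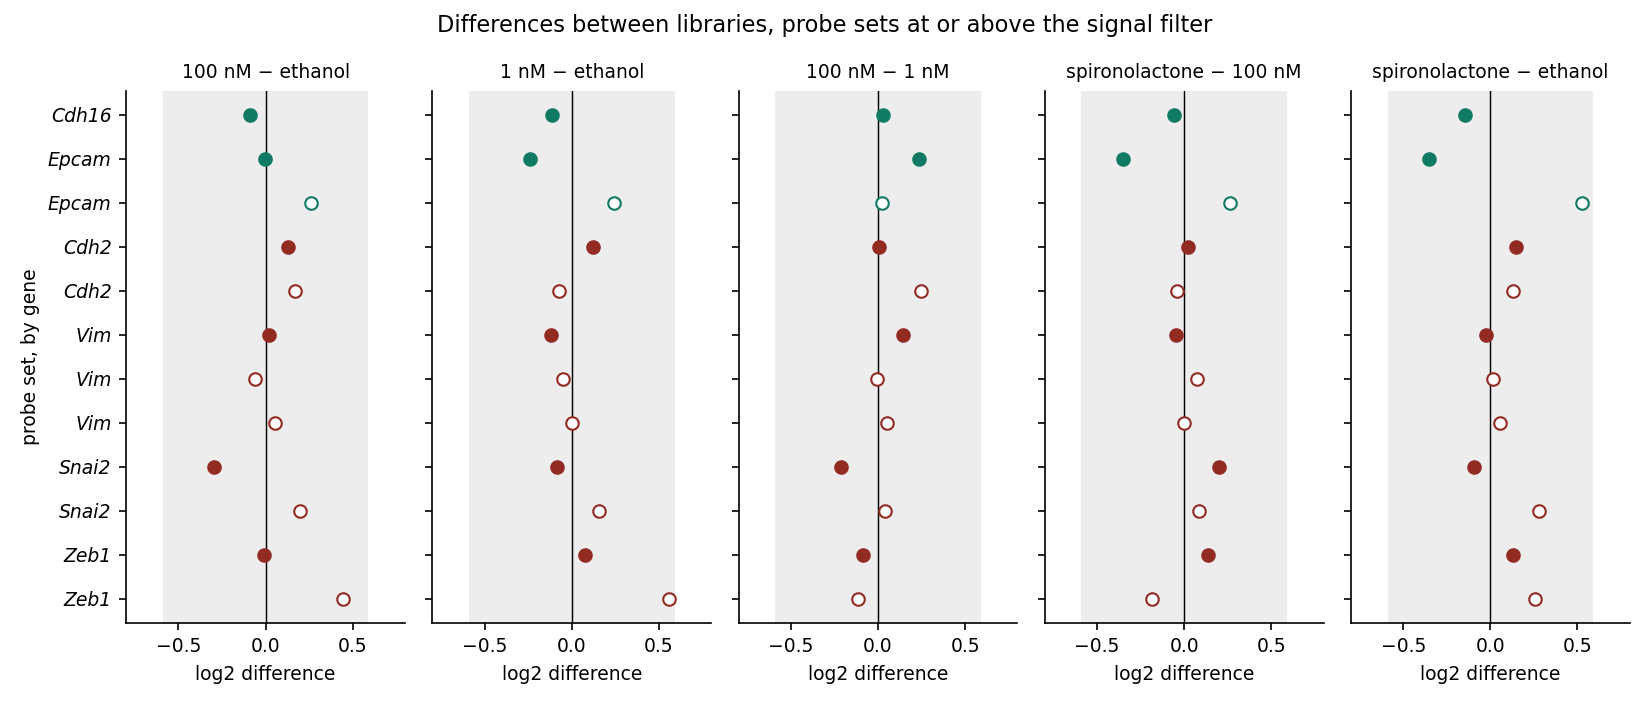
Log2 difference between libraries for the 12 member probe sets at or above the signal filter, in 5 comparisons, with epithelial genes in green, mesenchymal genes in red, filled circles for a gene's brightest probe set, open circles for its others and a grey band for differences under 1.5-fold. Every point lies inside the band, and the Epcam points fall on opposite sides of 0 in 4 of the comparisons, in the first of them with 1 point at 0.00.

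Probe sets of the same gene in the same libraries give a measure of error that these data do hold. Of the 5 members with at least 2 probe sets at or above the filter, the brightest pair differed in the same direction in 1 for 100 nM against ethanol, in 2 for 1 nM against ethanol, in 3 between the doses, in 1 for spironolactone against 100 nM and in 2 for spironolactone against ethanol. Over all 5218 genes with such a pair, the share with the same direction was between 52.0% and 55.0% in these comparisons. The median gap between the paired differences was between 0.15 and 0.16 on the log2 scale. The differences of the brightest probe sets of Cdh2, Vim, Cdh16 and Zeb1 were all smaller than the median gap of the same comparison. That gap takes in dimmer second probe sets and genes of lower signal, so it is a wide measure for these genes. For spironolactone against ethanol, the median absolute difference of genes above the 75th percentile was 0.07. Cdh2 (0.15), Cdh16 (-0.15) and Zeb1 (0.13) exceeded it in size and Vim (-0.03) did not.

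The spread over libraries followed signal. From the lowest to the highest library, Vim spanned 0.14, Zeb1 0.14, Cdh2 0.15 and Cdh16 0.15 on the log2 scale, where the median of 6936 genes above the 75th percentile of signal was 0.16. Snai2, also above that percentile, spanned 0.30, beyond the upper quartile of 0.24 for such genes. Epcam spanned 0.35, where genes between the median and the 75th percentile had a median of 0.42.

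Among the members below the filter the numerical ratios were larger and lay in the range usual for dim probe sets. Cdh1 spanned 2.05, Krt18 1.81, Krt8 1.22 and Krt19 0.96 on the log2 scale, and the median for the 7136 genes below the filter was 1.85. The Krt18 signal was 13.0 in ethanol and 45.5 with 100 nM, and the Cdh1 signal fell between 5.21 and 21.5. When every signal below the filter was set to the filter value, the highest over the lowest library was at most 1.02-fold for every member probe set below the filter. That outcome follows from the floor, since only the brightest Krt8 probe set reached the filter, in 1 library (56.8). It does not show that these genes were unchanged. With signals this low, no difference of these genes is given as a change.

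**Figure D4:**
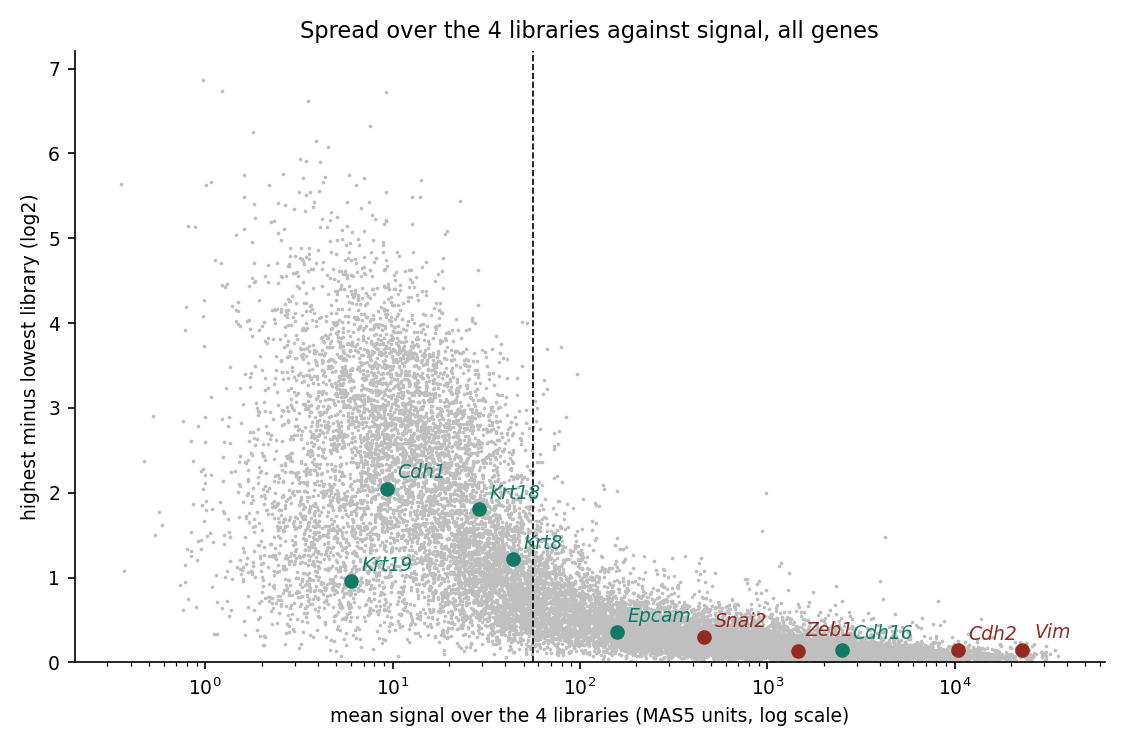
Highest minus lowest library (log2) against mean signal (log scale) for each of 18193 genes in grey, with the 6 epithelial members in green and the 4 mesenchymal members in red, and a dashed line at the filter of 55.9. Cdh1, Krt8, Krt18 and Krt19 lie left of the line, within the wide cloud of dim genes, and the other members lie to the right with spans of at most 0.35.

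Across the wider lists 51 of 79 measured genes entered, and 9 of them passed 1.5-fold in at least 1 of the 5 comparisons, where 11.4% of all entered genes did. All 9 were among the 28 entered genes of these lists below the 75th percentile of signal, and of all entered genes below it 28.1% passed in at least 1 comparison. At matched signal the count was therefore near the background, and the genes below are given by their values. None of the 9 had a second probe set at or above the filter to compare with. For 100 nM aldosterone against ethanol, the smooth muscle actin gene Acta2 was higher by 0.81 (62.0 to 109). The epithelial regulator Grhl1 was higher by 0.74 (67.5 to 113) and Snai3 by 0.62 (68.3 to 105). Each of these was near the filter of 55.9 in ethanol. Grhl2, a factor that upholds epithelial junction genes, was lower, with a signal of 52.5 against 105, and the basal keratin Krt5 differed by -0.59. Below 1.5-fold, the plakoglobin gene Jup was higher by 0.45, Ppl by 0.45, the matrix metalloproteinase gene Mmp2 by 0.57 and Pax8 by 0.14, and Marveld3 differed by -0.46, the growth factor receptor Fgfr1 by -0.48, Col5a1 by -0.30 and Emx2 by -0.07. The list medians were -0.03 for other epithelial genes, 0.02 for epithelial regulators, 0.02 for other transition factors and -0.08 for other mesenchymal genes, against 0.00 over all entered genes.

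For spironolactone against 100 nM aldosterone alone, the muscle intermediate filament gene Des differed by -1.37 (156 to 60.3), Grhl2 by -0.69 and Acta2 by -0.50. Krt5 was higher by 0.87 and the fibronectin receptor subunit Itga5 by 0.72, both from signals near the filter. Zeb2 was higher by 0.46, and by 0.82 in its second probe set. For 100 nM against ethanol it had differed by -0.27, and by -0.19 in the second. With 1 nM against ethanol Zeb2 was instead higher, by 0.30 and by 0.36 in the second. In the spironolactone library against ethanol it was higher by 0.19 and 0.63. For spironolactone against 100 nM, Sox9 differed by -0.37, though its second probe set was higher by 0.75, and Snai3 differed by -0.39. Col5a1 was higher by 0.33 (0.00 in the second), Dsp by 0.30 (0.19), Twist2 by 0.24, Emx2 by 0.14 and Klf5 by 0.08 (0.40). The catenin Ctnnd1 differed by -0.32 (0.16 in the second), Pax8 by -0.29 and Jup by -0.24. The list medians were 0.06, -0.04, 0.05 and 0.16 in the order above. Against ethanol, Des differed by -1.19 in the spironolactone library (137 to 60.3) and by 0.19 with 100 nM alone. In the spironolactone library against ethanol, Grhl2 differed by -1.69 and Grhl1 was higher by 0.68.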

How the data were processed

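Biotin-labelled cRNA from 250 ng of total RNA of each of the 4 samples was hybridised to 1 array. The deposited intensities, 1 per probe set on a linear scale, came from the MAS5 algorithm, per the submitters' processing notes. The sources used here give no MAS5 version, scaling target or detection calls. The authors had scaled the arrays to a common level: trimmed means, leaving out 2% at each end, were 497 in every library. The 64 control probe sets were left out. Symbols came from the platform annotation, updated by Entrez identifier through RefSeq for GRCm38.p6, which changed 0 symbols.

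Differences are of log2 signal with no pseudocount, between brightest probe sets, for genes at or above the median signal, and 1.5-fold is a rule of size. The number of arrays limits the precision. The 10 members, the 6 gene lists and the 8 marker lists were chosen with earlier results of these data known. Named genes are all members, all other transition factors and, of each other list, the 2 highest and 2 lowest entered genes for 100 nM against ethanol and for spironolactone against 100 nM; genes named for their level alone were chosen after their values were seen. The calling code was tested on simulated data. Quantile normalization, scaling to the 75th percentile, means over probe sets, other filters, an added signal of 50, a floor and a fold of 2 were tried. Python 3.11.15, numpy 2.4.6 and pandas 2.3.3 were used.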

Additional observations from a re-analysis of the deposited data

How the results depend on the processing

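The count of members above the library median in every library was 6. It was also 6 with the median over each gene's probe sets and after quantile normalization, and 4 against the 75th percentile. The count of members past 1.5-fold was 0 in each of the 5 comparisons, and stayed 0 after quantile normalization, after scaling to the 75th percentile, with means over probe sets, with a filter at the 75th percentile, with 50 added to each signal, with signals raised to the filter and at 2-fold. Without a filter on low signals it was 3 for 100 nM aldosterone against ethanol (Cdh1, Krt8 and Krt18), 1 for 1 nM against ethanol (Krt18), 2 for spironolactone against 100 nM (Cdh1 and Krt8), 3 between the doses (Cdh1, Krt8 and Krt19) and 2 for spironolactone against ethanol (Cdh1 and Krt18), all of them from signals below the library median. The cause lies in the construction, since the 4 dim members enter only there. Of 275 values of single members and of medians under an alternative, 22 changed sign and 0 passed 1.5-fold. The largest value that changed sign was that of Epcam for spironolactone against ethanol, -0.35, which was 0.09 as the mean of its probe sets. No replicate could be left out, and low signal limits what can be said of Cdh1 and the keratins.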
